A study of Mus musculus with 20 samples.

Results

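Deletion of Kmt2d by Mesp1Cre was examined in whole embryonic hearts by RNA-seq. The 8 libraries titled for this Cre line were taken from the 20 of the series, by their titles: 4 mutant hearts (Mesp1Cre; Kmt2d fl/fl; mTmG/+) and 4 control hearts (Mesp1Cre; Kmt2d fl/+; mTmG/+), all on C57BL/6. The controls carried the same Cre and the same reporter and 1 floxed allele, so mutants with both alleles floxed were compared with heterozygotes, not with wild types. The libraries are labelled E9.0, while the protocol text shared by the series gives E11.5. Mesp1Cre recombines in early mesoderm, whose descendants include myocardium, endocardium, vessels and epicardium, and a whole heart also holds circulating blood. The labels do not say whether a library is 1 heart or a pool.

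KMT2D is a methyltransferase that places mono- and dimethyl marks on lysine 4 of histone H3 at enhancers and promoters, in a complex with the demethylase KDM6A and the adaptor PAXIP1. At this stage the heart tube loops and begins to pump embryonic red blood cells, and its wall is supplied by diffusion. When oxygen is scarce, HIF transcription factors escape hydroxylation by the EGLN enzymes and turn on genes for glucose uptake, glycolysis, mitophagy, vessel growth and their own EGLN brakes.

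Between 21727258 and 28790705 reads were counted per library, and 15883 of 33495 genes passed the filter on low counts. edgeR called 980 genes higher (6.17% of those tested) and 841 lower (5.29%) in mutants at an FDR, the Benjamini-Hochberg adjusted p, below 0.05. Of these, 359 rose and 157 fell at least 2-fold. The first principal component held 32.3% of the variance and placed the 4 mutants from 21.2 to 55.4 and the 4 controls from -40.8 to -34.1. The groups also differed in 3 measured ways. Controls 2 and 3 were female by the Y-linked genes and Xist, and controls 1 and 4 and all mutants male. Erythroid genes averaged 4.04 to 5.49 log2 CPM in controls and 2.97 to 4.73 in mutants. The mitochondrial genome took 22.0% to 23.4% of reads in controls and 13.3% to 15.7% in mutants. Counts of calls in a gene group are therefore also given with erythroid content as a covariate and in male libraries alone (4 mutants and 2 controls). As a setting chosen after the data were seen, they are also given without mutants 1 and 3, the 2 with the fewest erythroid reads. Over all genes these 3 settings called 201, 395 and 314 higher and 91, 206 and 168 lower. Calls lost from a list are to be read beside these counts. Values for genes are CPM (counts scaled to library size, with TMM factors) in controls 1 to 4 and then mutants 1 to 4, and changes are log2 fold changes of mutant over control with their standard errors (SE). Exons of Slc16a3, Gys1, Ankrd37, Casq1, Cd34, Notch3 and Rbl2 also overlap a gene on the other strand, so their counts are less certain. Nothing in the labels says that libraries came from separate litters, so the tests measure the spread between these libraries.

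Kmt2d itself, listed as Mll2 (chr15:98664934-98701614, mm9), had 164, 156, 161 and 152 CPM in controls. In mutants it had 128, 144, 142 and 133 CPM. The groups did not overlap, as was so for mutants below controls in 8.70% of all genes and for mutants above controls in 9.02%, but the change of -0.21 (SE 0.07) did not pass the threshold (edgeR, FDR 0.0764). The counts cover the whole gene, including exons outside the deletion. Among the 18 genes of the KMT2 list, 3 rose and 1 fell, and their median change was 0.01 where that of all genes tested was -0.002. Kdm5b, a demethylase that removes trimethyl marks from the same lysine, had 129, 127, 141 and 109 CPM in controls and 293, 219, 214 and 224 in mutants. It rose by 0.91 (SE 0.11, FDR 0.000258), and Kdm5a, of the same family, by 0.64 (SE 0.09, FDR 0.000621) with its exons overlapping Ccdc77 on the other strand. Kmt2c (listed as Mll3), the closest relative of Kmt2d, rose by 0.29 (SE 0.07, FDR 0.0199), a call lost in 3 of 8 fits that left out 1 library, those without control 1, 2 or 3. Paxip1 had 62.1 to 69.7 CPM in controls and 39.9 to 50.1 in mutants, a change of -0.58 (SE 0.10, FDR 0.00312) that did not pass with the erythroid covariate (FDR 0.0926) or without mutants 1 and 3 (FDR 0.0569). With that covariate 2 genes of the list rose and 0 fell, in males 2 and 1, and without mutants 1 and 3 the counts were 2 and 0.

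Most tested genes that respond to low oxygen were higher in mutants. Members of these and all other lists were chosen with earlier results of these data known. The counts therefore describe the lists and are not a test of them. Of 27 tested genes for glucose uptake, glycolysis and lactate, 21 rose and 0 fell, with a median change of 0.68. Of 42 other hypoxia-induced genes tested, 37 rose and 0 fell, with a median of 1.60. The summed level of the first list was 10410 to 12000 CPM in controls and 16630 to 19460 in mutants, and that of the second 1844 to 2066 CPM in controls and 3975 to 5444 in mutants, so neither overlapped between groups. With erythroid content as a covariate 16 and 31 of these genes rose, and in male libraries alone 19 and 34. Without mutants 1 and 3 it was 18 and 34.

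**Figure D1:**
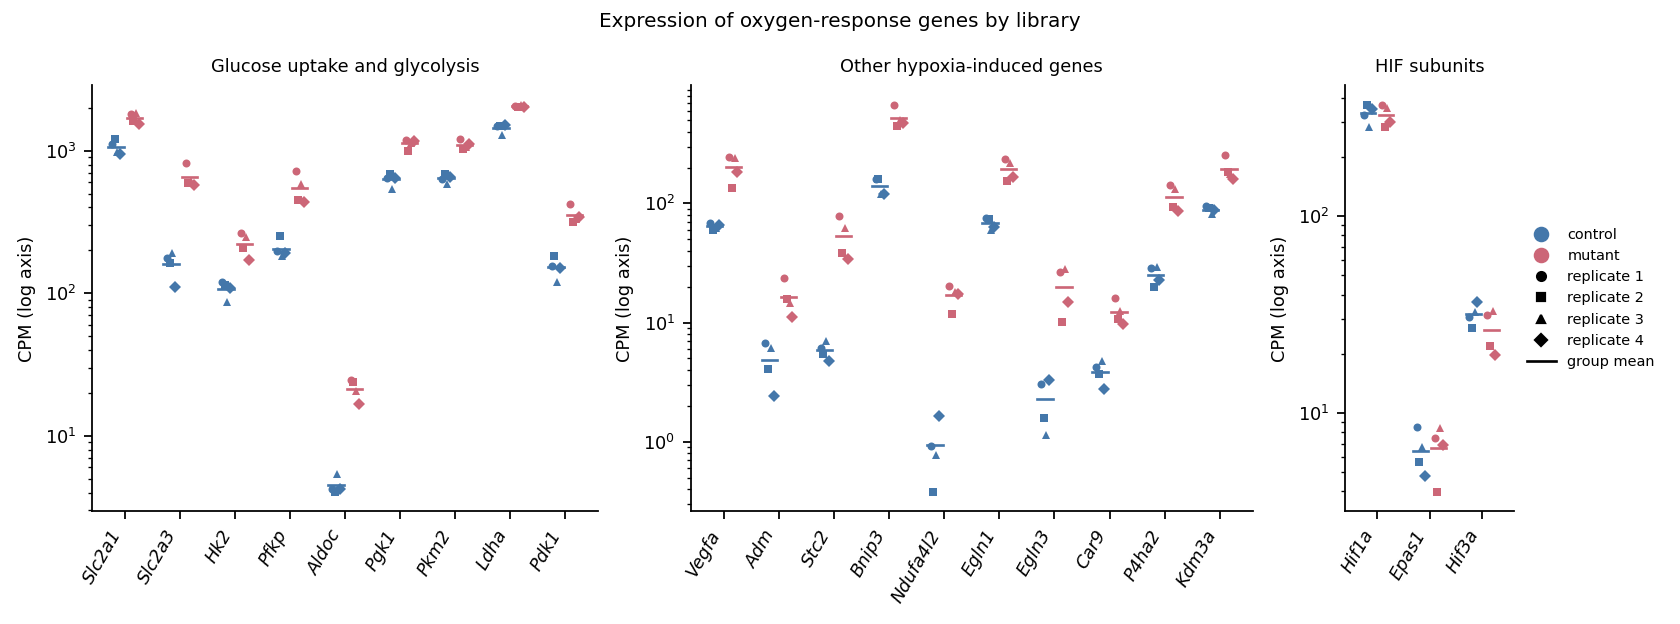
CPM on a log axis of genes for glucose uptake and glycolysis (left), other hypoxia-induced genes (middle) and HIF subunits (right), with 1 point per library (control blue, mutant red, shapes by replicate) and lines at group means. For each glycolytic and hypoxia-induced gene shown the mutant points lie above the control points, while those of the HIF subunits overlap.

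The start of the pathway is the glucose transporter. Slc2a3, a high-affinity transporter, had 178, 163, 191 and 112 CPM in controls and 817, 598, 613 and 576 in mutants. It rose by 2.02 (SE 0.16, FDR 1.55e-05), so that every mutant lay over every control. Slc2a1, the other main transporter, was at 943 to 1216 CPM in controls and rose by 0.68 (SE 0.09, FDR 0.000526). Hk2, the hexokinase that traps glucose, had 120, 114, 87.3 and 108 CPM in controls and 264, 207, 248 and 172 in mutants, a change of 1.05 (SE 0.13, FDR 0.00034). The phosphofructokinase Pfkp rose by 1.42 (SE 0.15, FDR 0.000124), and Pfkfb3, which makes its activator, by 1.39 (SE 0.13, FDR 4.07e-05). Aldoc, an aldolase, showed the largest rise of the list. It had 4.26, 4.03, 5.40 and 4.24 CPM in controls and 24.5, 23.9, 20.5 and 16.9 in mutants, a change of 2.26 (SE 0.18, FDR 1.55e-05). Abundant enzymes further down changed less: Pgk1 rose by 0.84 (SE 0.09), Pkm2 by 0.78 (SE 0.07), Gapdh by 0.60 (SE 0.10) and Ldha, which makes lactate, by 0.51 (SE 0.07), with FDRs of 0.00228 and below. Pdk1, the kinase that keeps pyruvate out of the mitochondrion, had 155, 184, 120 and 150 CPM in controls and 422, 317, 332 and 341 in mutants. It rose by 1.21 (SE 0.12, FDR 7.88e-05). The lactate exporter Slc16a3 rose by 0.68 (SE 0.12), and 2 genes of glycogen storage, Gys1 and Ppp1r3c, by 1.18 (SE 0.13) and 1.43 (SE 0.14).

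Feedback genes of the HIF pathway rose while its subunits did not pass the test. Egln3, a hydroxylase that marks HIF for destruction, had 3.04, 1.59, 1.13 and 3.29 CPM in controls and 26.6, 10.1, 28.3 and 14.9 in mutants. It rose by 3.14 (SE 0.39, FDR 0.00029), and Egln1, the main oxygen sensor, by 1.51 (SE 0.14, FDR 3.39e-05). Of the 9 subunits and sensors in their own list, which leaves out Egln1 and Egln3, 0 passed in either direction (0 at an unadjusted p below 0.05 also), and their median change was -0.07. Hif1a had 328, 368, 284 and 352 CPM in controls and 369, 283, 354 and 300 in mutants, and the groups overlapped (-0.03, SE 0.10, FDR 0.896). Its exons overlap Gm15283 on the other strand.

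Promoters of 5 of the risen genes are shown, with the sequence ACGTG, to which HIF binds, marked. They are the 5 with the largest rise among the 17 called members of both lists that have a single RefSeq window and a match, a choice made with the values known. Each is the 250 bases before the start, from RefSeq on GRCm38.p6 and read along the gene, with ACGTG or its reverse complement CACGT in capitals. Egln3 lies at chr12:54203875-54204124 (minus strand), Ddit4 at chr10:59951771-59952020 (minus), Ankrd37 at chr8:45999851-46000100 (minus), P4ha2 at chr11:54100674-54100923 (plus) and Bhlhe41 at chr6:145865421-145865670 (minus).
Egln3: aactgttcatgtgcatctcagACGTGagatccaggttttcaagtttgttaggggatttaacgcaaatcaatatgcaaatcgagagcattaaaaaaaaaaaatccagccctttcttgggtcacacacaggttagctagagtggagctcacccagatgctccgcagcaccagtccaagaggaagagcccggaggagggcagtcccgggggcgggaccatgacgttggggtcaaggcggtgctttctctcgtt
Ddit4: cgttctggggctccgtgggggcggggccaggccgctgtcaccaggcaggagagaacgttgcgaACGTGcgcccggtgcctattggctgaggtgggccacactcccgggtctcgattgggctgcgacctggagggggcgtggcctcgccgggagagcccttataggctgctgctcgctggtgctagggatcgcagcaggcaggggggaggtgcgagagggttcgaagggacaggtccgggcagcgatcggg
Ankrd37: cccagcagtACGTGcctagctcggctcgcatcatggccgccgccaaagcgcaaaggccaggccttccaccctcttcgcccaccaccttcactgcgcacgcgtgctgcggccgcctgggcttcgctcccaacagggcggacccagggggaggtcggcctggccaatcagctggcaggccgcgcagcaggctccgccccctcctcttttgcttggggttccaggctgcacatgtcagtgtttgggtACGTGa
P4ha2: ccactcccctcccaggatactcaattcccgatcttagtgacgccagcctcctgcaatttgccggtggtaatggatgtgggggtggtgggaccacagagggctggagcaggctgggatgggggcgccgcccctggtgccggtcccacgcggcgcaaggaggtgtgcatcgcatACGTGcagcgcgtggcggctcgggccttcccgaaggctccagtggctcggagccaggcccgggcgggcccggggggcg
Bhlhe41: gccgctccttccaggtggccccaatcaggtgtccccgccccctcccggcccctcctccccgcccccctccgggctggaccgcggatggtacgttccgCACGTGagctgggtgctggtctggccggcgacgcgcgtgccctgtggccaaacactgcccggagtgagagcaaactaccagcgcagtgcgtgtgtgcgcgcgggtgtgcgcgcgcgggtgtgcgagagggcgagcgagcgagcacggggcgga
The match began -229 bases from the start in Egln3, -187 in Ddit4, -241 and -6 in Ankrd37 and -78 in P4ha2. In Bhlhe41 the forward and reverse matches overlap in the palindrome CACGTG, at -153, which other factors that bind E-boxes also recognise. Across RefSeq, 18.5% of 27025 genes had ACGTG or CACGT in this stretch of at least 1 window. Among the 26 tested glycolytic genes with a window 13 had it, and among 29 other hypoxia-induced genes 17 (58.6%). These windows were also richer in G and C, at 60.8% and 63.6% on average against 53.2% for all windows. The lists were drawn up as genes of the oxygen response, and the shares cover tested members whether called or not. They therefore do not bear on the change in mutants. The matches describe letters in the sequence, and binding was not measured here.

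Secreted and vascular signals stood among the largest rises. Vegfa, the growth factor that draws vessels, had 68.2, 59.8, 62.8 and 65.5 CPM in controls and 246, 135, 240 and 184 in mutants, a change of 1.65 (SE 0.16, FDR 4.35e-05). Stc2, a secreted glycoprotein, went from 6.12, 5.41, 7.06 and 4.77 CPM to 79.0, 38.0, 61.7 and 34.1. It rose by 3.19 (SE 0.26, FDR 1.77e-05). In both genes mutants 1 and 3 were the highest, and these were also the mutants with the fewest erythroid reads. Adm, a vasodilator peptide, rose by 1.75 (SE 0.31, FDR 0.00346), and Igfbp3, which binds insulin-like growth factors, by 2.52 (SE 0.18, FDR 1.17e-05). Hmox1, which breaks down heme, rose by 0.95 (SE 0.15, FDR 0.00201).

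Mitochondrial and chromatin genes of the hypoxia list rose as well. Bnip3, a mitophagy receptor, had 161, 160, 120 and 119 CPM in controls and 674, 444, 506 and 474 in mutants (1.90, SE 0.14, FDR 1.29e-05). Its relative Bnip3l rose by 1.11 (SE 0.09, FDR 1.55e-05). Ndufa4l2, which takes the place of a cytochrome oxidase partner subunit in hypoxia, rose by 4.18 (SE 0.35, FDR 1.88e-05) from at most 1.65 CPM to 11.9 to 20.2 CPM, though its exons overlap Shmt2 on the other strand. Cox4i2, the hypoxic form of a cytochrome oxidase subunit, rose by 2.30 (SE 0.17, FDR 1.18e-05). Kdm3a and Kdm4c, histone demethylases that need oxygen, rose by 1.13 (SE 0.13) and 0.93 (SE 0.15). Ddit4, an inhibitor of mTOR signalling, had 0.905 to 2.50 CPM in controls and 10.8 to 16.9 in mutants, a rise of 3.02 (SE 0.30, FDR 6.96e-05). The prolyl hydroxylase P4ha2, which matures collagen, rose by 2.18 (SE 0.18), Ankrd37 by 2.34 (SE 0.27) and the clock repressor Bhlhe41 by 2.02 (SE 0.22).

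Stress genes controlled by ATF4, the factor of the integrated stress response to scarce amino acids or unfolded protein, rose in 11 of 22 tested, with 0 lower and a median of 0.55. Chac1, which degrades glutathione, had 0.556, 0.629, 0.121 and 0.658 CPM in controls and 11.7, 4.32, 16.4 and 5.70 in mutants (4.26, SE 0.52, FDR 0.000288). Mutants 1 and 3 again stood over mutants 2 and 4. Sesn2 rose by 1.73 (SE 0.28), the cystine transporter Slc7a11 by 1.94 (SE 0.30), and the mitochondrial serine enzyme Shmt2 by 1.04 (SE 0.13). Atf4 itself was at 79.5 to 100.2 CPM in controls and 87.5 to 133 in mutants, and did not pass (0.26, SE 0.14, FDR 0.267). The erythroid covariate left 3 of the 22 higher, in males alone 4, and without mutants 1 and 3 it was 5. Of 19 p53 and apoptosis genes 2 rose and 1 fell. Cdkn1a, the inhibitor of cyclin-dependent kinases, changed by 1.00 (SE 0.31) with an FDR of 0.0526. The covariate left 0 of the p53 list called, as did males alone, and 1 was lower without mutants 1 and 3.

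**Figure D2:**
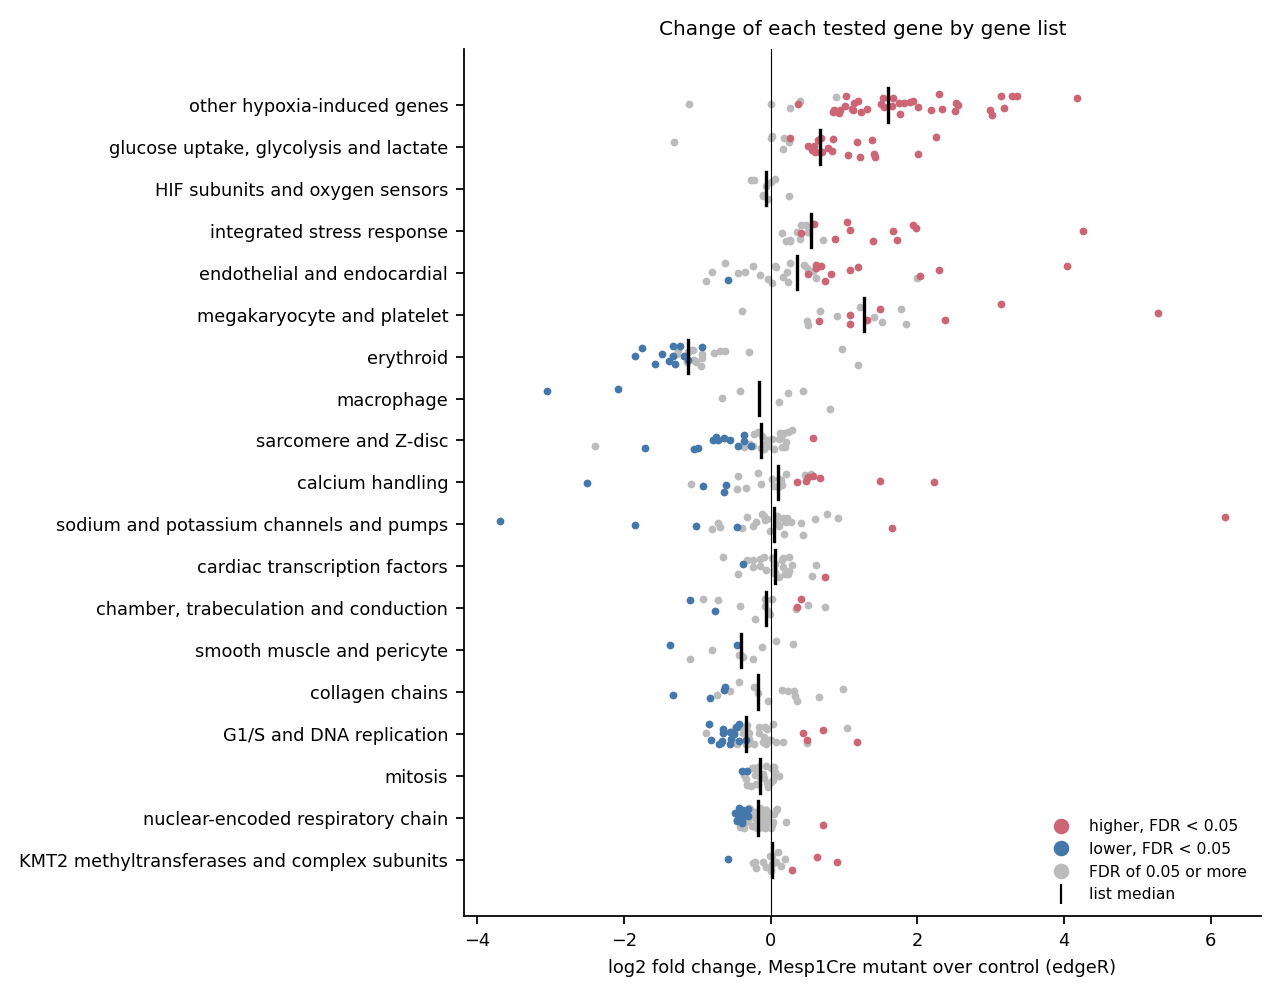
Log2 fold change of every tested gene in 19 gene lists, 1 point per gene, coloured by the edgeR call (higher red, lower blue, other grey), with a black tick at the list median. Points of the hypoxia and glycolysis lists lie almost all to the right of 0, those of the erythroid list to the left, and most cardiac lists lie on both sides.

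Metallothioneins, small proteins that hold zinc and copper, rose sharply. Mt1 had 6.04, 6.04, 3.35 and 5.47 CPM in controls and 54.0, 38.7, 36.6 and 36.8 in mutants (2.99, SE 0.20, FDR 1.17e-05). Mt2 rose by 2.22 (SE 0.32, FDR 0.00096). Of the 23 tested genes in the list with antioxidant enzymes, 4 rose and 6 fell. The extracellular glutathione peroxidase Gpx3 rose by 0.67 (SE 0.12), while the intracellular peroxide enzymes Txnrd1 and Prdx1 fell, with changes of -0.68 (SE 0.12) and -0.48 (SE 0.10). None of the 6 falls passed with the erythroid covariate (2 higher, 0 lower), while 3 rose and 3 fell in males alone and 3 and 1 without mutants 1 and 3. Mt1 (FDR 0.000118) and Mt2 (FDR 0.00266) were the 2 that passed with the covariate. Among 13 immediate early genes 2 rose, of which Ier3 went from 1.65 to 3.13 CPM in controls to 11.0 to 26.3 in mutants (3.03, SE 0.30, FDR 6.96e-05). Each of the 3 settings left 1 immediate early gene higher.

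Endothelial and endocardial genes leaned upward, with 11 of 32 tested higher, 1 lower and a median of 0.36. In a bulk sample a change in the share of a cell type and a change in RNA per cell cannot be told apart. Apln, the peptide of sprouting endothelial tip cells, had 0.890, 0.629, 0.685 and 0.494 CPM in controls and 20.2, 9.02, 9.78 and 5.74 in mutants. It rose by 4.04 (SE 0.40, FDR 6.96e-05), and its receptor Aplnr by 2.30 (SE 0.51, FDR 0.0131), from 0.905 to 12.1 CPM in controls to 23.7 to 34.6 in mutants. The VEGF receptors Kdr and Flt1 rose by 0.74 (SE 0.08, FDR 0.000137) and 1.09 (SE 0.12, FDR 0.000153). Kdr had 107, 113, 96.7 and 112 CPM in controls and 188, 161, 183 and 184 in mutants, with a gap wider than the spread of either group. The vascular transcription factors Sox7, Sox17 and Fli1 rose by 1.19 (SE 0.14), 2.04 (SE 0.37) and 0.61 (SE 0.12). Cd34 fell by 0.58 (SE 0.13, FDR 0.013). Nfatc1, a marker of endocardium, was at 71.0 to 92.4 CPM in controls and 73.9 to 105 in mutants (0.07, SE 0.12, FDR 0.764). Erythroid content as a covariate left 6 of the 32 higher, among them Kdr (FDR 0.00526), Flt1 (FDR 0.00668) and Sox7 (FDR 0.00526). In males alone 9 were higher, without mutants 1 and 3 it was 7, and the fall of Cd34 passed in none of these settings.

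Blood lineages moved in opposite directions. Of 29 tested erythroid genes 12 fell and 0 rose, with a median of -1.12, and the summed level of the list was 5916 to 19100 CPM in controls and 2139 to 8204 in mutants. The embryonic beta-like globin Hbb-y had 3693, 1823, 4212 and 5068 CPM in controls and 502, 1938, 958 and 979 in mutants. It fell by 1.76 (SE 0.35, FDR 0.00766), with mutant 2 inside the range of controls. The alpha-like Hba-x fell by 1.38 (SE 0.39, FDR 0.0382), a call lost in 6 of the 8 fits that left out 1 library. Bpgm, which sets the oxygen affinity of hemoglobin, fell by 1.18 (SE 0.21, FDR 0.004) without overlap. Alas2, the first enzyme of erythroid heme synthesis, had a change of -0.77 (SE 0.26, FDR 0.0797), and its groups overlapped. In male libraries 9 erythroid genes fell and 0 rose, and without mutants 1 and 3 the counts were 2 lower and 2 higher. Mutants 1 and 3 were chosen by the level of these same genes. A smaller fall without them follows from that choice and is no check of it. Exons of Alas2 overlap Apex2 on the other strand.

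Platelet genes rose in 8 of 18 tested, with 0 lower and a median of 1.27. Ppbp, a chemokine of platelet granules, had 0.445, 0.210, 1.49 and 0.247 CPM in controls and 21.0, 12.1, 56.5 and 4.33 in mutants (5.28, SE 0.78, FDR 0.00117). Pf4, its neighbour on chromosome 5, had 7.67, 2.64, 7.50 and 9.88 CPM in controls and 59.3, 38.2, 120 and 26.8 in mutants (3.14, SE 0.45, FDR 0.000961). Mutant 3 was highest and mutant 4 lowest for both. Vwf, which endothelium also makes, rose by 1.08 (SE 0.16, FDR 0.000946). Itga2b, the integrin that defines the lineage, was at 3.27 to 6.75 CPM in controls and 5.26 to 11.4 in mutants (0.52, SE 0.29, FDR 0.282). The erythroid covariate left 3 of the 18 higher, males alone 4 and the fit without mutants 1 and 3 left 3. Of 24 macrophage genes only 8 were abundant enough to test, and 2 of these fell, with a median of -0.15. Of the 8, 4 had a positive and 4 a negative change. Lyz2, the macrophage lysozyme, fell by 3.05 (SE 0.40, FDR 0.000464), from 5.04, 6.55, 5.73 and 14.4 CPM to 0.904, 1.25, 0.570 and 1.08. Laptm5, a lysosomal protein of blood cells, fell by 2.09 (SE 0.46, FDR 0.0131). Macrophage falls numbered 1 with the covariate, 1 in males and 2 without mutants 1 and 3. C1qa, a defining macrophage gene, had 0 reads in all 8 libraries.

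**Figure D3:**
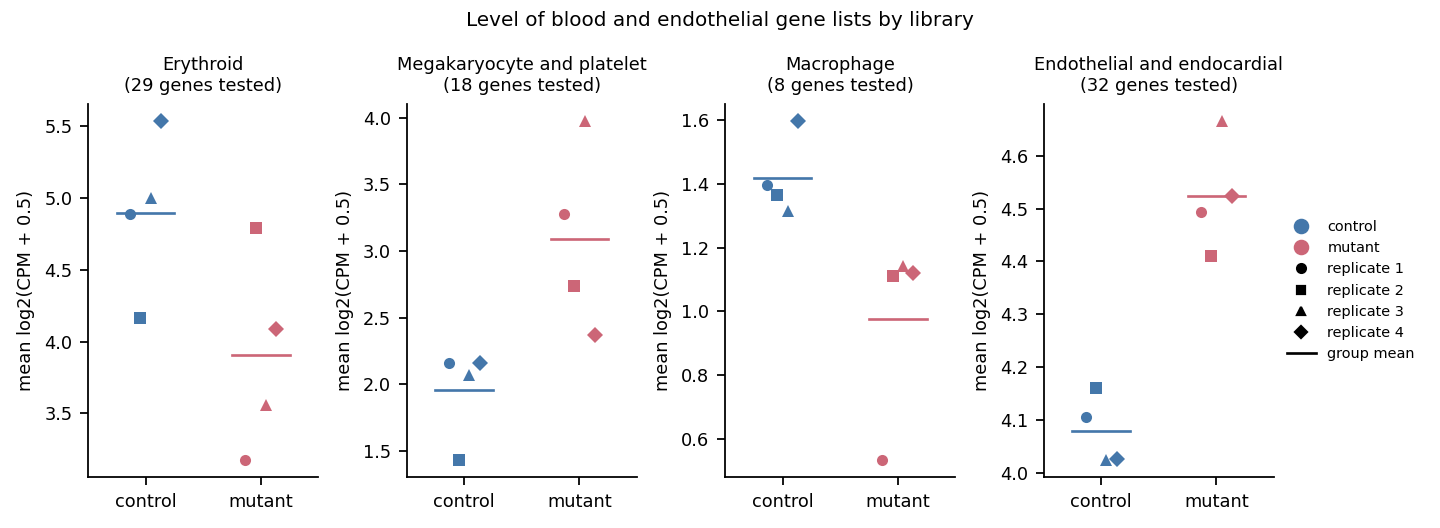
Mean log2(CPM + 0.5) over the tested genes of 4 lists, 1 point per library (control blue, mutant red, shapes by replicate) with lines at group means. Erythroid levels overlap between the groups, while platelet and endothelial levels of mutants lie over those of controls and macrophage levels under them. Of the 8 macrophage genes, 4 had a positive change.

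Contractile genes split, with most of the called members lower. Of 37 sarcomere and Z-disc genes tested, 12 fell and 1 rose, and the median was -0.13. Ttn, the giant spring protein, was the 1 that rose. It had 18250, 24250, 20070 and 25140 CPM in controls and 36080, 27570, 37210 and 29520 in mutants (0.57, SE 0.12, FDR 0.00782). Tnni3, the troponin I of later heart, had 181, 170, 149 and 133 CPM in controls and 77.5, 94.6, 114 and 81.3 in mutants. It fell by 0.79 (SE 0.13, FDR 0.00215), though its exons overlap 6030429G01Rik on the same strand. Lmod2, which lengthens thin filaments, fell by 0.99 (SE 0.18, FDR 0.00446). The Z-disc calcineurin binder Myoz2 fell by 1.72 (SE 0.35, FDR 0.00773), from 5.75 to 9.01 CPM in controls to 1.17 to 3.86 in mutants. The small heat shock protein Cryab fell by 0.71 (SE 0.11, FDR 0.00188). The most used markers of cardiomyocytes did not pass: Tnnt2 changed by 0.11 (SE 0.08, FDR 0.394) and Myh7 by 0.29 (SE 0.18, FDR 0.343). With erythroid content as a covariate 3 of the 37 fell and 0 rose, and 8 fell and 0 rose both in male libraries alone and without mutants 1 and 3. The rise of Ttn passed in none of the 3 (FDR 0.0541 to 0.203).

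**Figure D4:**
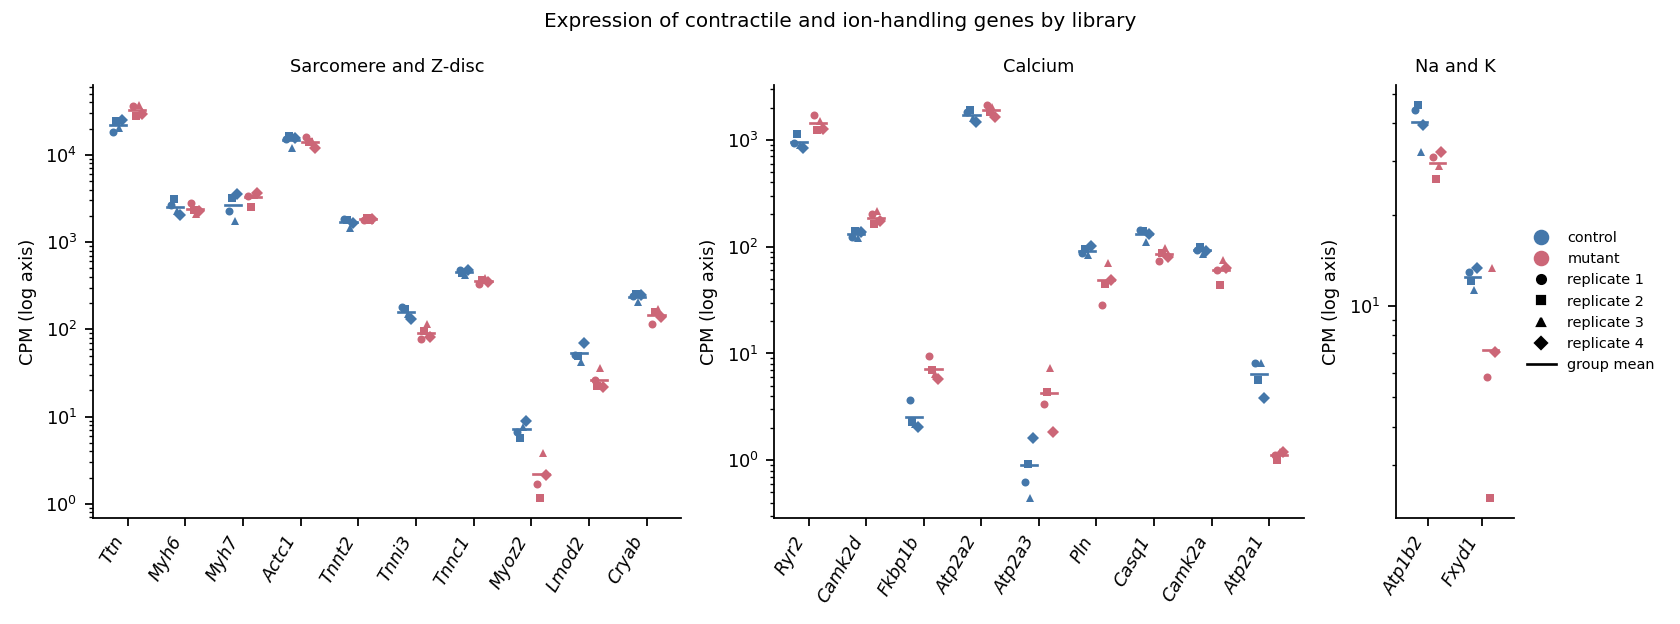
CPM on a log axis of sarcomere and Z-disc genes (left), calcium-handling genes (middle) and genes of sodium and potassium transport (right), with 1 point per library (control blue, mutant red, shapes by replicate) and lines at group means. Ttn, Ryr2 and Fkbp1b lie higher in mutants, Tnni3, Pln, Casq1 and Atp1b2 lower, and Tnnt2 and Atp2a2 overlap.

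Calcium-handling genes changed in both directions, with 7 of 27 tested higher and 4 lower. The release channel of the sarcoplasmic reticulum and its partner were higher: Ryr2 had 942, 1138, 885 and 846 CPM in controls and 1723, 1225, 1495 and 1264 in mutants (0.58, SE 0.12, FDR 0.00714). Fkbp1b, which steadies that channel, rose by 1.49 (SE 0.28, FDR 0.00449). A regulator of the uptake side, Pln, and a store protein, Casq1, were lower. Pln, the brake on the calcium pump, had 86.6, 96.0, 82.7 and 100.4 CPM in controls and 28.7, 45.0, 70.9 and 48.5 in mutants (-0.92, SE 0.20, FDR 0.0118). Casq1, a calcium store protein, fell by 0.63 (SE 0.10, FDR 0.00228). The cardiac pump Atp2a2 was at 1469 to 1908 CPM in controls and 1633 to 2119 in mutants (0.16, SE 0.10, FDR 0.324). Its relatives of low abundance moved apart: Atp2a1, the pump of fast skeletal muscle, fell by 2.50 (SE 0.32, FDR 0.000338) and shares exonic bases with Rabep2 on the other strand, and Atp2a3 rose by 2.23 (SE 0.50, FDR 0.0134). Of the kinases, Camk2a fell by 0.61 (SE 0.14, FDR 0.0127) and Camk2d rose by 0.51 (SE 0.10, FDR 0.00537). The covariate left 0 higher and 4 lower, males alone 1 and 2, and the fit without mutants 1 and 3 left 0 and 5.

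Sodium and potassium channels and pumps held 2 higher and 4 lower of 32. Scn4b, a beta subunit of sodium channels, fell by 3.69 (SE 0.58, FDR 0.00169), to 2 to 8 reads per mutant from 27 to 99 per control. Kcne3, a potassium channel subunit, had 0 to 5 reads per control and 74 to 386 per mutant (FDR 0.000334), and so few control reads give no firm fold. The list held 1 higher and 1 lower gene with the covariate, 1 and 2 in males, and 1 and 2 without mutants 1 and 3.

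Among 27 cardiac transcription factors tested 1 rose and 1 fell. Tbx5, the T-box factor of atria and left ventricle, had 163, 173, 149 and 104 CPM in controls and 280, 266, 240 and 196 in mutants (0.74, SE 0.15, FDR 0.00715). Smyd1, the muscle methyltransferase needed for sarcomere assembly, fell by 0.37 (SE 0.07, FDR 0.00566). Tbx5 did not pass with the erythroid covariate (FDR 0.139) or without mutants 1 and 3 (FDR 0.0851), and Smyd1 lost its call with the covariate, while both passed in males. Gata4 (0.04, SE 0.11, FDR 0.835), Hand2 (-0.45, SE 0.16, FDR 0.0863) and Nkx2-5 (-0.65, SE 0.43, FDR 0.36) did not pass. For Nkx2-5 control 2, at 78.9 CPM, lay far over the other 7 libraries, at 15.1 to 23.2 CPM. Of 17 chamber and conduction genes 2 rose and 2 fell. Bmp10, the ligand of trabecular myocardium, fell by 1.09 (SE 0.26, FDR 0.0184), a call lost in 3 of the 8 fits that left out 1 library, those without control 1, mutant 1 or mutant 4. Neither the covariate nor males alone left a chamber gene called, and without mutants 1 and 3 Bmp10 fell (FDR 0.0266). The natriuretic peptides Nppa and Nppb had changes of -0.72 (SE 0.24, FDR 0.0738) and -0.92 (SE 0.30, FDR 0.0621), and most of the exonic length of Nppa overlaps Gm13054 on the other strand. Neither the 24 cushion and valve genes nor the 3 foregut genes tested held a call, with 4 and 0 of them at an unadjusted p below 0.05. Of 14 Notch genes 1 rose, Notch3 (0.96, SE 0.21, FDR 0.0131), which passed in males (FDR 0.0268) but not with the covariate (FDR 0.218) or without mutants 1 and 3 (FDR 0.116).

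DNA replication genes leaned lower, with 17 of 49 G1/S genes lower, 4 higher and a median of -0.33. Rrm2, the ribonucleotide reductase subunit made in S phase, had 179, 190, 168 and 201 CPM in controls and 78.5, 122, 110 and 109 in mutants (-0.82, SE 0.12, FDR 0.00101). The replication factor Gins1 fell by 0.84 (SE 0.16), and the clamp Pcna and the helicase subunit Mcm4 had changes of -0.66 (SE 0.13) and -0.54 (SE 0.09), with FDRs of 0.00835 and below. The 4 that rose were Mycn and 3 genes that hold cells back from S phase: Rb1 rose by 1.17 (SE 0.16, FDR 0.000749), with exonic overlap with Lpar6 and Rcbtb2, Cdkn1b by 0.71 (SE 0.15, FDR 0.00882) and Rbl2 by 0.50 (SE 0.14, FDR 0.0397), the last call lost in 6 of 8 fits that left out 1 library. Of 27 mitosis genes 2 were lower (7.41%), near the 5.29% lower among all genes tested. Mki67 was at 660 to 757 CPM in controls and 545 to 663 in mutants (-0.22, SE 0.08, FDR 0.0887). The covariate left 1 G1/S gene lower and 1 higher, males alone 5 and 1, and the fit without mutants 1 and 3 left 2 and 1. In mitosis genes the falls numbered 0, 1 and 0 in these settings. In the blood of embryos, replicating erythroid cells also express these genes. Their part in the result was not tested.

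Respiratory chain genes of the nucleus changed little but mostly one way. Of 72 tested 14 fell and 1 rose, 63 had a negative change, and the median was -0.17. Atp5g1 and Atp5g3, which make the same ring subunit of ATP synthase, fell, with changes of -0.46 (SE 0.09, FDR 0.00565) and -0.43 (SE 0.09, FDR 0.00715), as did Ndufa10 of complex I at -0.45 (SE 0.08, FDR 0.00443). Ndufv3, another complex I subunit, rose by 0.72 (SE 0.12, FDR 0.00208), with 69.2 to 75.9 CPM in mutants. The erythroid covariate left 1 of the 72 lower and 0 higher, males alone 2 and 1, and the fit without mutants 1 and 3 also 2 and 1. Fatty acid genes held 1 higher and 1 lower of 21. Ucp2, an uncoupling protein relative, fell by 1.05 (SE 0.20, FDR 0.00491), and did not pass with the covariate (FDR 0.144).

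Genes of the mitochondrial genome, a group looked at after its values were seen, did not move as 1 block. Of the 12 protein-coding genes tested on the plus strand 7 fell and 1 rose. mt-Nd1, a complex I subunit, had 3042, 3058, 3182 and 3040 CPM in controls and 509, 1284, 1055 and 899 in mutants (-1.72, SE 0.20, FDR 0.000202). mt-Co1, the catalytic subunit of cytochrome oxidase, fell by 1.01 (SE 0.11, FDR 0.000149), with exonic overlap with mt-Ts1, and mt-Cytb of complex III by 1.37 (SE 0.15, FDR 0.00015). The opposite held at the overlapping pair mt-Nd5 and mt-Nd6, which lie on opposite strands: mt-Nd6 had 510, 525, 452 and 509 CPM in controls and 769, 911, 1193 and 1077 in mutants (0.98, SE 0.12, FDR 0.000202). mt-Nd5 rose by 0.48 (SE 0.11, FDR 0.0131). Both rRNA genes fell, AY172335.7 by 0.77 (SE 0.07, FDR 1.88e-05), while of 14 tRNA genes on the plus strand 7 rose and 3 fell. The erythroid covariate kept mt-Nd1 (FDR 0.00411), mt-Co1 (FDR 0.0046) and mt-Nd6 (FDR 0.00526) past the threshold, and mt-Nd5 did not pass with it (FDR 0.107). In males alone mt-Nd1 (FDR 0.00718), mt-Co1 (FDR 0.00545) and mt-Nd6 (FDR 0.00937) passed, and mt-Nd5 did not (FDR 0.0788). Each of these genes passed without mutants 1 and 3. The fall of mt-Nd4 passed without mutants 1 and 3 (FDR 0.0163), but not with the covariate (FDR 0.327) or in males (FDR 0.174).

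**Figure D5:**
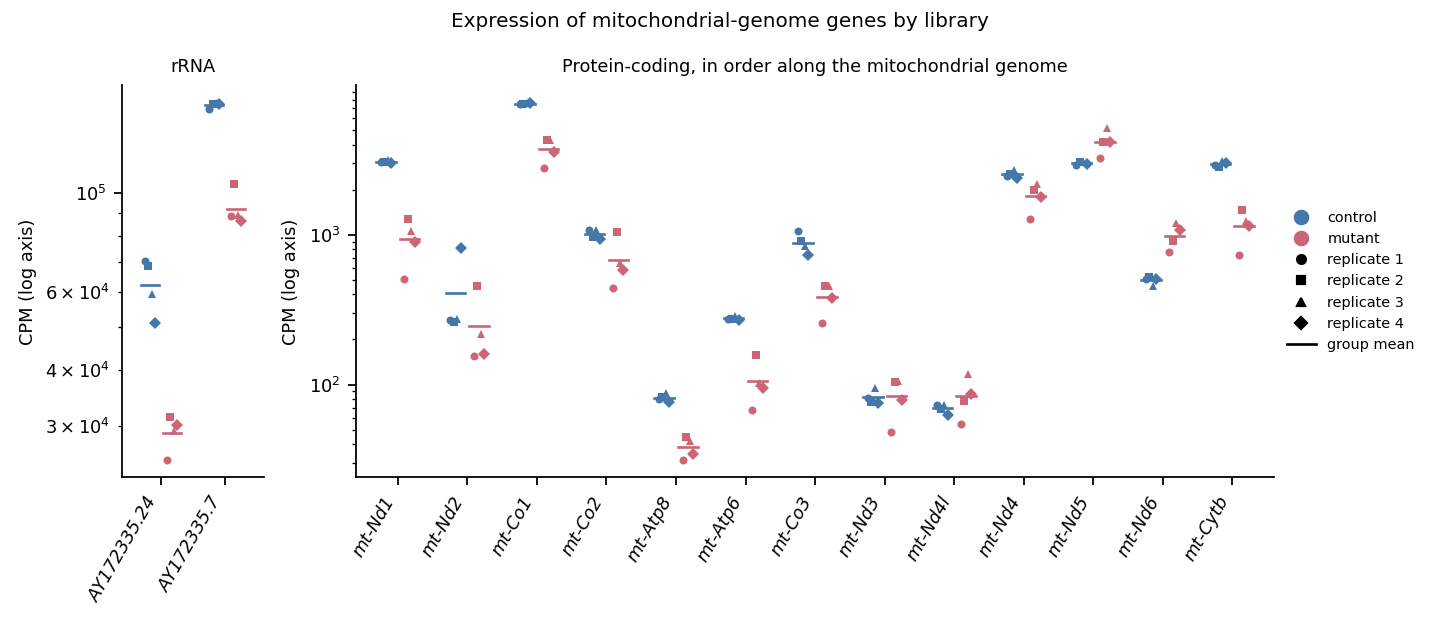
CPM on log axes of the mitochondrial rRNA genes (left) and protein-coding genes in their order along the mitochondrial genome (right), with 1 point per library (control blue, mutant red, shapes by replicate) and lines at group means. Mutant points lie below control points for mt-Nd1, mt-Co1 and mt-Cytb and above them for mt-Nd5 and mt-Nd6.

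Stromal genes fell in small numbers. Col2a1, the fibrillar collagen of cartilage and early valve mesenchyme, had 236, 326, 198 and 255 CPM in controls and 113, 131, 66.3 and 92.5 in mutants (-1.34, SE 0.19, FDR 0.00079), and 3 of the other 16 collagens tested fell with 0 higher. Cspg4, a pericyte proteoglycan, fell by 1.37 (SE 0.17, FDR 0.000288), and Cnn1, a smooth muscle calponin, had a change of -0.46 (SE 0.09, FDR 0.00481), the 2 called of 11. Erbb3, a receptor that neural crest and cushion cells carry, fell by 1.73 (SE 0.28, FDR 0.00196). It was the 1 called of 4 neural crest genes tested, of which 2 had a positive change. Nes, an intermediate filament of progenitors, had a change of -0.79 (SE 0.15, FDR 0.00449). It was the 1 called of 3 neural tube genes tested, of which 1 had a positive change. Krt19, a keratin of epicardium, rose by 1.62 (SE 0.24, FDR 0.00129) from 17.7 to 41.0 CPM in controls to 62.6 to 114 in mutants. It was the 1 called of 11 epicardial genes. The retinoic acid receptor Rarb rose by 0.82 (SE 0.15, FDR 0.00434), and of 23 retinoic acid and Hox genes tested 2 rose. Among 9 genes of insulin-like growth factor signalling 3 rose, with the receptor Igf1r at 0.41 (SE 0.07, FDR 0.00247), and of 13 imprinted growth genes 1 rose, Sgce (0.49, SE 0.14, FDR 0.0408), whose call was lost in 7 of the 8 fits that left out 1 library. Igf1 changed by -0.51 (SE 0.17, FDR 0.0714). Of the calls in these lists, Col2a1 (FDR 0.0132), Cspg4 (FDR 0.0106) and Erbb3 (FDR 0.0461) passed with the erythroid covariate. Cnn1 (FDR 0.101), Nes (FDR 0.107), Krt19 (FDR 0.0553), Rarb (FDR 0.153) and Igf1r (FDR 0.0604) did not. Of 17 second heart field genes 1 rose and 1 fell. Sex-linked genes showed the imbalance of sexes: Xist, listed as AL669964.8, was at 1524 and 1525 CPM in controls 2 and 3 and at most 2.88 in the other 6 libraries.

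The largest changes over all genes, taken where mean log2 CPM reached 1, the groups were separate and no exon overlapped another gene, included genes of no list. Nrn1 (chr13:36817494-36826346), a neurite-promoting surface protein, had 7.26, 5.20, 3.27 and 2.51 CPM in controls and 141, 69.5, 110.2 and 82.2 in mutants. It rose by 4.46 (SE 0.31, FDR 1.17e-05), 22.0-fold. Dpp6 (chr5:27143743-28054045), a partner of potassium channels, had 0.519, 1.76, 1.09 and 2.18 CPM in controls and 31.3, 16.2, 25.2 and 25.2 in mutants (4.15, SE 0.35, FDR 1.88e-05). The pseudogene AC129015.1 (chr5:27332480-27334161) lies within the span of Dpp6 and had at most 3 reads in a control and 81 to 133 in a mutant (FDR 0.000107). Rgs11, which shortens G protein signals, rose by 4.58 (SE 0.47, FDR 9.48e-05). The transcript 2900016B01Rik had 0 to 7 reads per control and 77 to 132 per mutant (FDR 0.00021). A pair of entries share the symbol Muc2, a secreted mucin, and both were higher, the first at 5.90 to 8.17 CPM in mutants against 0 to 1.00 in controls (FDR 0.00161) and the second at 4.75 to 14.9 against 0.0806 to 0.864 (FDR 0.000426). How their reads were divided between the entries is not known.

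The falls named next were smaller than these rises. Mylpf, the light chain of fast skeletal muscle, had 19.6, 21.9, 14.6 and 12.0 CPM in controls and 4.13, 4.86, 3.11 and 2.13 in mutants (-2.25, SE 0.27, FDR 0.000258). Myoz1, the fast-muscle relative of Myoz2, fell by 1.86 (SE 0.32, FDR 0.00295). Ppp1r1a, an inhibitor of protein phosphatase, had 22.6, 19.2, 18.0 and 18.9 CPM in controls and 3.96, 5.80, 4.38 and 5.13 in mutants (-2.03, SE 0.17, FDR 1.88e-05). Lmx1a, a LIM homeobox factor, fell by 2.31 (SE 0.59, FDR 0.0248) and Inpp5j, an inositol phosphatase, had a change of -2.30 (SE 0.62, FDR 0.0308), calls lost in 3 and 4 of the 8 fits that left out 1 library. Tspan32, a tetraspanin of blood cells, fell by 2.03 (SE 0.40, FDR 0.0069), and 1190007F08Rik had a change of -1.97 (SE 0.30, FDR 0.00144). The mitochondrial tRNA AY172335.5 fell by 1.96 (SE 0.24, FDR 0.000288).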

How the data were processed

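RNA was sequenced from whole hearts in 8 libraries, 4 per group by their titles. The authors deposited read counts per gene and FPKM values in 1 table for the series of 33495 genes. Per the labels, reads were aligned with TopHat2 2.0.8b to mm9. The paper also names featureCounts and USeq, and it differs from the labels on the library kit and instrument. Whether counting used strand is not given in the sources used here, so overlapping genes are uncertain. Of the columns, 40 were used, and 20 of variance-stabilised values were not.

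Deposited counts were tested with the quasi-likelihood test of edgeR 4.0.16 (R 4.3.3, TMM scaling, filterByExpr) on the 8 libraries, without a block, with Benjamini-Hochberg adjustment over 15883 genes and a threshold of 0.05. Totals of 21727258 to 28790705 reads set the precision. The SE is that of the log2 fold change. The steps were tested on simulated data, where 52% of changes with an absolute log2 fold of 1 and 79% of those of 2 were recovered. The libraries are not stated to come from separate embryos or litters. Sex was read from 4 Y-linked genes at 10 CPM or more. The members and gene lists were chosen with earlier results of these data known. Genes are named as anchors of a list, as its largest rise and fall, as members that show what a list holds, or as the 10 largest rises and falls over all genes (mean log2 CPM of 1 or more, separate groups, no exonic overlap). Some named genes are not reported here.

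Alternatives were DESeq2 1.42.0, its size factors, other count filters, all 20 libraries in 1 fit, blocks, limma 3.58.1 on log2 of the deposited FPKM plus 0.1 or 1, a fold of at least 1.5, sex or erythroid content as covariates, males only, erythroid genes left out, thinning, and each library left out. Leaving out mitochondrial genes, or mutants 1 and 3, was added after seeing the data.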

Additional observations from a re-analysis of the deposited data

Results flagged for a closer look

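In 11 of 206 groups of 4 libraries examined for the named genes, 1 library lay far from the other 3 by the Dixon criterion, and chance gives about 1 in 20 such groups. Mutant 1 was the highest of its group for Kdm5b at 293.2 CPM, for Mt1 at 53.98 CPM and for Notch3 at 65.31 CPM. Mutant 4 was the lowest for Ndufv3 at 69.2 CPM. Control 2 was the highest for Nkx2-5 at 78.88 CPM and the lowest for Sgce at 16.36 CPM. Control 3 was the highest for Aldoc at 5.403 CPM and the lowest for Ldha at 1300.0 CPM. Control 4 was the highest for Nppa at 254.2 CPM and for Lyz2 at 14.41 CPM. Control 1 was the highest for an entry of Muc2 at 1.001 CPM. For Nkx2-5 the change without control 2 was 0.24 in place of -0.65.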

How the results depend on the processing

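The counts of 980 higher and 841 lower genes became 201 and 91 once erythroid content entered the fit, 395 and 206 in male libraries alone, 520 and 379 with sex as a covariate, 314 and 168 without mutants 1 and 3, and 631 and 382 with a fold of at least 1.5. All 20 libraries in 1 fit gave 1704 and 1889, and the DESeq2 Wald test called 1347 lower. limma on log2(FPKM + 0.1) gave 1635 and 289, and on log2(FPKM + 1) 1638 and 287, with the median of all genes shifted by 0.148 and 0.107. Leaving out 1 library gave 638 to 1144 higher and 414 to 1017 lower genes. Without mutant 1 it was 638 and 414, and lower genes numbered 455, 542 and 505 without controls 1, 2 and 4 and 549 and 537 without mutants 3 and 4. The cause of these shifts was not tested, and fits with fewer libraries have less power.

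Kmt2d passed in the DESeq2 Wald test (-0.212, adjusted p 0.0393) and with 20 libraries (-0.228, adjusted p 0.0318), and ranged from -0.23 to -0.17 with 1 library left out. It passed in no other setting, with -0.175 under the erythroid covariate (adjusted p 0.434) and -0.21 in males alone (adjusted p 0.255). With limma its change was smaller, at -0.053 on log2(FPKM + 0.1) (adjusted p 0.733) and -0.048 on log2(FPKM + 1) (adjusted p 0.738). Of 86 named genes called, 0 reversed, 49 lost the call with the erythroid covariate, 28 in males alone and 33 without mutants 1 and 3. Of 66 named genes not called, 28 reversed in at least 1 alternative for all libraries and 22 in at least 1 fit that left out 1 library. Among them, Nkx2-5 reversed with sex as a covariate (0.139) and in males alone (0.136) and ran from -0.893 to 0.241 with 1 library left out. Hif1a reversed on FPKM (0.128 and 0.126) and ran from -0.098 to 0.048, Gata4 from -0.059 to 0.121 and Nfatc1 from -0.037 to 0.14. Atp2a2 (-0.034) and Alas2 (0.031) reversed with the erythroid covariate, and Atf4 (-0.053) without mutants 1 and 3.

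With the replicate number as a block, 762 genes were higher and 622 lower, and 9 of the 86 named calls were lost. Correlations of same-numbered libraries' deviations were 0.0448, -0.0317, -0.0129 and 0.0865, so the numbers were not taken as a pairing. The description codes as a block gave 825 and 657. With 4 libraries a group, small changes in genes of few reads may have been missed, which was not tested by read count. In simulated data 52% of changes with an absolute log2 fold of 1 were recovered, so a gene that did not pass may still have changed. The simulation held 100 changed genes of each size, while 1821 genes were called here. Its recovery need not match that of these data.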

Other observations

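Several gene families, chosen after their values were seen, were not lists of their own. Of 74 mitochondrial ribosomal proteins tested, which build the ribosome that translates mitochondrial mRNAs, 17 fell and 0 rose, with a median of -0.28. Mrpl36 had 58.0, 51.9, 46.3 and 57.5 CPM in controls and 24.8, 37.1, 31.0 and 31.2 in mutants (-0.78, SE 0.13, FDR 0.00251). With the erythroid covariate 0 of the 74 were called (Mrpl36 FDR 0.0805), in males alone 2 fell and without mutants 1 and 3 it was 1. Of 77 cytosolic ribosomal proteins 1 rose and 1 fell, with a median of 0.03, and neither call was kept with the covariate.

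Carbonic anhydrases, which interconvert carbon dioxide and bicarbonate, rose in 4 of 11 tested, with 0 lower and a median of 0.83. Car9 and Car12 are also counted above among the other hypoxia-induced genes. Car9 rose by 1.67 (SE 0.23, FDR 0.000734), Car14 by 0.85 (SE 0.16, FDR 0.0055) and Car12 by 3.29 (SE 0.64, FDR 0.00601), for which mutant 4 at 1.04 CPM lay among the controls. With the erythroid covariate Car9 passed (FDR 0.0312), while Car14 (FDR 0.174) and Car12 (FDR 0.145) did not. Exons of Car14 overlap Aph1a and those of Car9 overlap Gm12454 on the other strand. Car1 was also called, with groups that overlapped, and its call was lost in 5 of the 8 fits that left out 1 library. The family held 2 higher genes with the covariate, 1 in males and 2 without mutants 1 and 3. Of 6 MHC class II genes, which present antigen, 1 rose. H2-Ab1 had 0.0741, 3.02, 5.73 and 3.498 CPM in controls and 28.6, 18.9, 65.0 and 52.2 in mutants (3.75, SE 0.62, FDR 0.00233), with exonic overlap with H2-Aa on the other strand and an FDR of 0.0617 with the erythroid covariate.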
